A study of Homo sapiens with 12 samples.

Results

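The genes described here are 36 genes of glucose breakdown and of the transcriptional response to low oxygen, measured by RNA sequencing in IMR5 cells, an established human neuroblastoma line with amplified MYCN. They were picked by gene symbol from the 2 gene tables that the authors deposited. The table for the drug selinexor held 34 of them among 20029 genes, and the table for XPO1 knockdown held 35 among 19610. SLC2A3, a glucose transporter of neurons, had no row in either table, and CA9, a carbonic anhydrase of the cell surface, had no row in the selinexor table. A gene was tested where its mean over the 6 libraries of a table was 10 normalized counts or more. That left 33 of the genes tested with selinexor, without ADM, and 34 tested with knockdown, without CA9.

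There were 4 groups of 3 libraries. Selinexor-treated cells were exposed to 100 nM of the drug, a small molecule that blocks the nuclear export receptor XPO1, for 24 h. Their controls were grown with the solvent DMSO, for a time that the labels leave out. XPO1 siRNA cells received, by nucleofection, an ON-TARGETplus siRNA against XPO1 (numbered 10), and RNA was taken after 72 h. Control siRNA cells received a negative control siRNA, also with RNA taken after 72 h. All 4 groups are the same line in the same medium with serum, and the labels name no exposure to low oxygen. Whether the 3 libraries of a group stem from separate cultures is not stated in the labels, so each p-value reflects only how far these samples spread, and that spread may be technical.

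Glycolysis splits glucose into pyruvate through a chain of enzymes, several of which exist as related copies made from different genes. Lactate dehydrogenase then turns pyruvate into lactate, while pyruvate dehydrogenase, which pyruvate dehydrogenase kinases switch off, sends it into mitochondria. When oxygen is short, prolyl hydroxylases such as EGLN1 and EGLN3 slow down, the factor HIF-1 accumulates, and it raises many of these enzymes together with genes such as VEGFA and BNIP3. MYC and MYCN, which bind the E-box CACGTG, are also known to raise glycolytic genes, LDHA among them.

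Both factors read short motifs near gene starts, so the bases before the starts of 6 of the genes are printed to show which members carry such letters and which do not. The core hypoxia response motif was searched as ACGTG or GCGTG and the E-box as CACGTG, on both strands. Each CACGTG also holds ACGTG on either strand, and capitals mark every match. The windows are the 250 bases before the start that RefSeq gives on GRCh38.p14, whereas the deposited gene positions are on hg19.

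LDHA (chr11:18394313-18394562, plus strand): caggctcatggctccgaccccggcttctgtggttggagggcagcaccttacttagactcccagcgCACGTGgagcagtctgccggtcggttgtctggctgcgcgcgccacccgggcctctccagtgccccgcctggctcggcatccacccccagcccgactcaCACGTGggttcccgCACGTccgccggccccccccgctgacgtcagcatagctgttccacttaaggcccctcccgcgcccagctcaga
LDHB (chr12:21657843-21658092, minus strand): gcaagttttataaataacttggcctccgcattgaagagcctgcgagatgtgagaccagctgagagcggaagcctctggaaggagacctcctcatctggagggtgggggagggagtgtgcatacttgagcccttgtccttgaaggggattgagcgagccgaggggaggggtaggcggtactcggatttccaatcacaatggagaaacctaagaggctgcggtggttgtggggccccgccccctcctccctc
PGK1 (chrX:78103998-78104247, plus strand): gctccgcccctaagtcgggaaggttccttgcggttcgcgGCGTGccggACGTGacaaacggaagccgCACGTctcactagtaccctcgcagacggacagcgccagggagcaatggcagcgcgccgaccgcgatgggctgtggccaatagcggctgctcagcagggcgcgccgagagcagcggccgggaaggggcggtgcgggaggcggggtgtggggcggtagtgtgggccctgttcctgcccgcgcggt
ALDOC (chr17:28576896-28577145, minus strand): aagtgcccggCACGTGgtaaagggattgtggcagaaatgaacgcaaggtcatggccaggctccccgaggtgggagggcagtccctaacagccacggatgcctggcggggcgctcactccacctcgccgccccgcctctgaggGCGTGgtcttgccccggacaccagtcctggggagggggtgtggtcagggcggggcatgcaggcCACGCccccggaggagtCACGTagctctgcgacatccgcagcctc
BNIP3 (chr10:131981924-131982173, minus strand): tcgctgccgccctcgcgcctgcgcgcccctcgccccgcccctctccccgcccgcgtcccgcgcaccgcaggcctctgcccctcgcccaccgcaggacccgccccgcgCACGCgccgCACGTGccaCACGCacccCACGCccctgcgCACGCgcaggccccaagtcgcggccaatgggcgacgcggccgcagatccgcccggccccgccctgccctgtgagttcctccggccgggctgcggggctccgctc
EGLN3 (chr14:33951075-33951324, minus strand): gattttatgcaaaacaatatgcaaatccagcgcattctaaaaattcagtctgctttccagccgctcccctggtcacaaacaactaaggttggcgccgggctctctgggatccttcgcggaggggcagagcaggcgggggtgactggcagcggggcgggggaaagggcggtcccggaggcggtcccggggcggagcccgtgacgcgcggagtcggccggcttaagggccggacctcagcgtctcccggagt

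LDHA and LDHB encode the subunits of the same enzyme. The LDHA window held 5 matches to ACGTG and 2 to CACGTG, and each of those E-boxes counts as 2 of the 5, while the LDHB window held 0. BNIP3 had 6 matches and ALDOC 5, while EGLN3, itself a known HIF target in human cells, had 0 in this window. RefSeq windows were found for 30 of the 36 genes, with 56 windows in all, since several genes have more than 1 start. ACGTG or GCGTG was present in 58.9% of the members' windows and in 43.2% of all 35116 windows in the table. Taken singly, ACGTG was in 41.1% of the members' windows and 18.5% of all, and GCGTG in 30.4% and 32.2%. CACGTG was present in 14.3% of the members' windows and in 6.34% of all. The members' windows had a median GC content of 68.4%, against 58.0% over all windows, and both motifs hold CG; the part of base composition in these shares was not tested. A match is only a string of letters here, and no binding was measured.

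XPO1 itself had 4259.9, 4377 and 4397 normalized counts in the XPO1 siRNA libraries, against 18568, 18950.1 and 18908 in the control siRNA libraries. With selinexor, which acts on the protein, it had 15544, 22513 and 21165, against 17886, 18899 and 18356 with DMSO. Estimated depth was 26.8 to 33.8 M reads counted to genes with selinexor, 39.5 to 40.9 M with DMSO, 33.5 to 55.8 M with XPO1 siRNA and 40.6 to 54.0 M with control siRNA. Selinexor replicate 1 stood apart, with a correlation of log2 values of 0.974 and 0.977 with the other libraries of its group, which had 0.991 between them. Marker genes of adrenergic neuroblastoma cells (HAND2, GATA3 and others) summed to 68630 normalized counts or more in every library, although TH, which makes catecholamines, had no row in the selinexor table and was under 10 in each knockdown library. Those of leukocytes summed to 14.4 or less and those of red blood cells had no row. The deposited values are the authors' normalized read counts, scaled separately in each table, so levels are compared only within a table.

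Most of the glycolytic chain was lower when XPO1 was inhibited or knocked down. With selinexor, 17 of the 33 tested members fell and 6 rose, and with XPO1 siRNA 25 of 34 fell and 3 rose, at a limma adjusted p under 0.05 (Benjamini-Hochberg over all genes). These shares have to be read against very broad changes. Selinexor changed 49.2% of all 18128 tested genes, 22.9% upward and 26.3% downward, and XPO1 siRNA changed 54.5% of 17616, 25.9% upward and 28.6% downward. The median log2 fold change of the members was -0.34 with selinexor and -0.46 with XPO1 siRNA, while over all tested genes the median was -0.01 with selinexor and 0.00 with XPO1 siRNA. Groups did not overlap for 20 members that were lower and 7 that were higher with selinexor, where 61.7% of all genes were without overlap, 32.9% lower and 28.8% higher. With XPO1 siRNA the numbers were 25 and 2, where 60.4% of all genes were without overlap, 31.2% lower and 29.2% higher. In bulk RNA, fewer cells of a kind and less RNA per cell cannot be told apart.

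Among the 33 genes tested in both tables, 16 fell in both: SLC2A1, HK2, GPI, PFKP, ALDOA, TPI1, PGK1, PGAM1, ENO1, PKM, LDHA, LDHB, PDK1, PFKFB3, VEGFA and EGLN1. PFKM, NDRG1 and ANKRD37 rose in both. Another 8 fell with XPO1 siRNA and were not called with selinexor, namely HK1, ALDOC, PFKFB2, PFKFB4, BNIP3, BNIP3L, EGLN3 and P4HA1. PFKL, ENO2 and SLC16A3 rose with selinexor and SLC16A1 fell with it, with no call in the knockdown. GAPDH and PDK3 were called in neither, and no gene of the set was called higher in one and lower in the other. The comparisons have separate controls. Matching shares over all genes tested in both are not given here, so nothing is read from these joint counts.

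**Figure D1:**
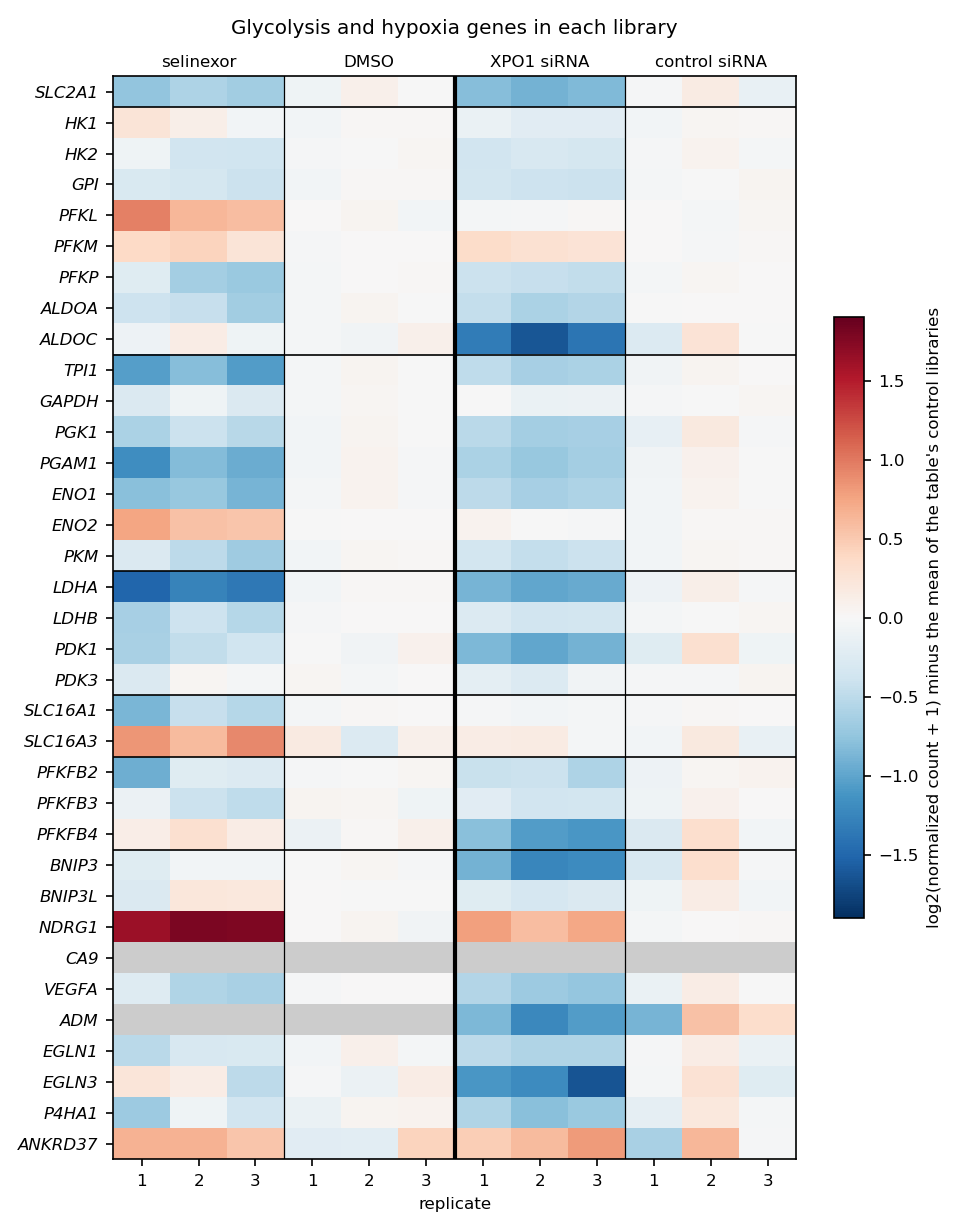
Log2(normalized count + 1) of each gene in each of the 12 libraries, minus the mean of the control libraries of the same table (DMSO or control siRNA), by role; grey marks genes not tested. The LDHA row is blue in all 6 treated libraries, NDRG1 is red in all 6, and ALDOC, BNIP3 and EGLN3 are dark blue in the 3 XPO1 siRNA libraries and pale in the 3 selinexor libraries.

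**Figure D2:**
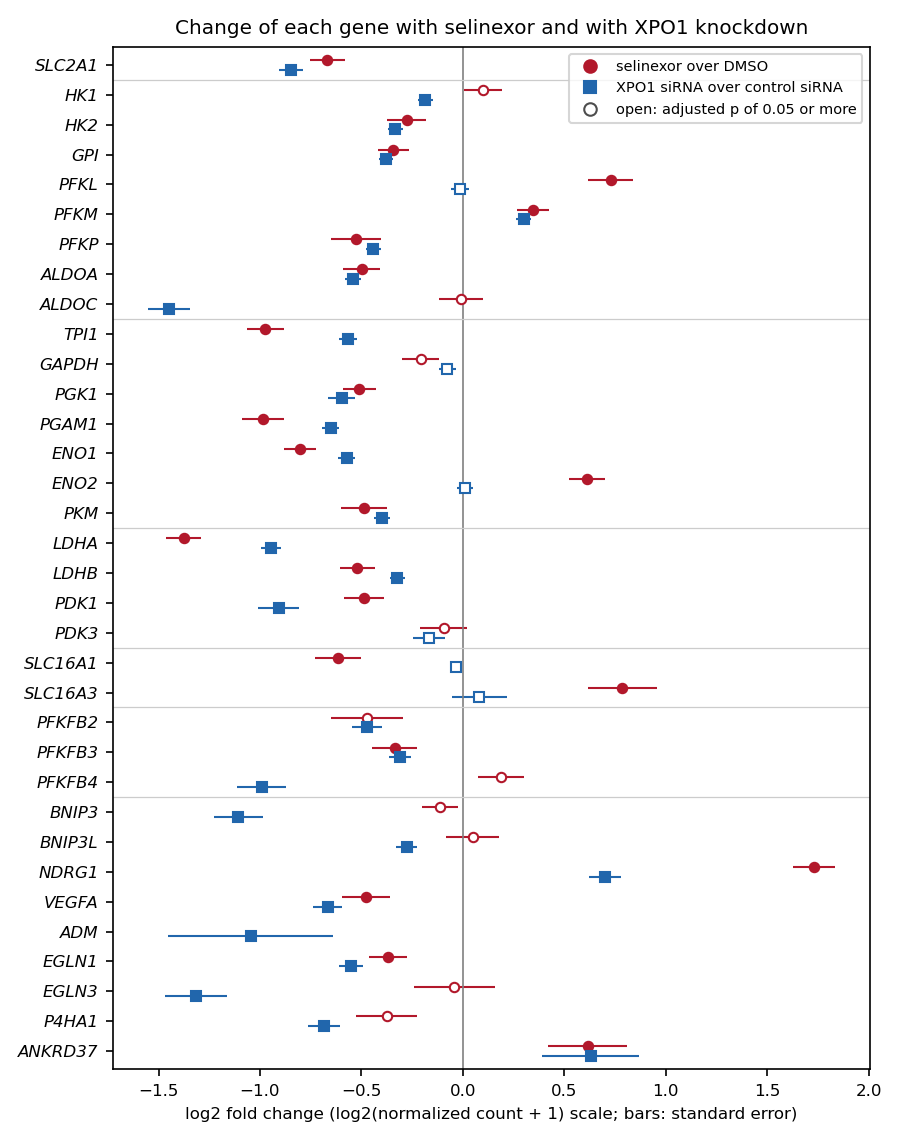
Log2 fold change with its standard error for each tested gene, selinexor over DMSO (red circles) and XPO1 siRNA over control siRNA (blue squares); open symbols had an adjusted p of 0.05 or more. LDHA lies at -1.38 with selinexor and -0.94 with knockdown, NDRG1 at 1.73 with selinexor and 0.70 with knockdown, while ALDOC lies at -0.01 with selinexor and -1.45 with knockdown.

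Glucose enters through transporters, of which SLC2A1 (GLUT1; hg19 chromosome 1, 43391052 to 43424531, minus strand) is the common one of proliferating cells. In normalized counts of replicates 1, 2 and 3, the unit of all values per library that follow, it had 1313, 1467 and 1394 in the selinexor libraries, against 2079, 2357 and 2199 in the DMSO libraries (log2 fold change -0.67, SE 0.0872, limma adjusted p = 0.000426). In the knockdown table it had 2098, 1979 and 2070.4 in the XPO1 siRNA libraries, against 3649, 4094 and 3355 in the control siRNA libraries (log2 fold change -0.85, SE 0.059, limma adjusted p = 5.91e-08). The treated libraries lay below every control library in both tables, a 1.59-fold decrease with selinexor and a 1.8-fold decrease with XPO1 siRNA, and the 2 changes did not differ at the threshold (difference of the log2 changes 0.18, SE 0.11, limma adjusted p = 0.232).

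Of the 8 genes from hexokinase to aldolase, 4 fell and 2 rose with selinexor, where 26.3% of all genes fell and 22.9% rose. With XPO1 siRNA 6 fell and 1 rose, where 28.6% of all genes fell and 25.9% rose. Hexokinase traps glucose in the cell, and HK2, its inducible form, had 7411, 6136 and 6034 in the selinexor libraries, against 7779, 7799 and 8042 in the DMSO libraries (log2 fold change -0.28, SE 0.0959, limma adjusted p = 0.0412). This was a small change: it was lost when any 1 of 5 libraries was left out, all but selinexor replicate 1, with the log2 fold change between -0.37 and -0.22, and under equal totals (-0.20, adjusted p = 0.168). With XPO1 siRNA, HK2 fell as well, at 8172, 8564 and 8386 in the XPO1 siRNA libraries, against 10351, 11048 and 10243 in the control siRNA libraries (log2 fold change -0.33, SE 0.0367, limma adjusted p = 4.73e-06). HK1, the constitutive form, had a log2 fold change of 0.10 with selinexor (adjusted p = 0.4) and fell by 0.18 on the log2 scale with XPO1 siRNA (adjusted p = 0.00102). GPI, which turns glucose 6-phosphate into fructose 6-phosphate, fell by 0.34 with selinexor and by 0.38 with XPO1 siRNA (limma adjusted p = 0.00584 and 5.78e-07).

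Phosphofructokinase, the committed step, is built from 3 kinds of subunit, and they moved apart. PFKP, the platelet form, had 2873, 2148 and 2078 in the selinexor libraries, against 3292, 3394 and 3434 in the DMSO libraries (log2 fold change -0.53, SE 0.125, limma adjusted p = 0.00847), and 3742, 3646 and 3568 in the XPO1 siRNA libraries, against 4815, 5072 and 4990.1 in the control siRNA libraries (log2 fold change -0.44, SE 0.036, limma adjusted p = 2.7e-07). PFKM, the muscle form, which SENP1 overlaps on the other strand, rose in both. It had 5278, 5484 and 4835 in the selinexor libraries, against 4017, 4111 and 4109.9 in the DMSO libraries (log2 fold change 0.35, SE 0.0791, limma adjusted p = 0.00697), and 5977, 5719.5 and 5603 in the XPO1 siRNA libraries, against 4689, 4622 and 4742 in the control siRNA libraries (log2 fold change 0.30, SE 0.0352, limma adjusted p = 8.43e-06). PFKL, the liver form (hg19 chromosome 21, 45719934 to 45747260, plus strand), rose with selinexor, with 1922, 1537 and 1490.5 in the selinexor libraries, against 989, 1024 and 953 in the DMSO libraries (log2 fold change 0.73, SE 0.111, limma adjusted p = 0.000957). In the knockdown table PFKL overlapped between groups, with 1380.1, 1390.4 and 1432 in the XPO1 siRNA libraries, against 1415, 1372 and 1457 in the control siRNA libraries (log2 fold change -0.01, limma adjusted p = 0.809), and the changes differed (difference of the log2 changes 0.74, SE 0.12, limma adjusted p = 0.000493). Without selinexor replicate 1, which was the highest of its group for PFKL and PFKP, the PFKL change was 0.61 and the PFKP change -0.67 (adjusted p = 3.33e-06 and 3.89e-07).

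Aldolase cuts the sugar into a pair of triose phosphates. ALDOA, the main form here, fell in both comparisons, with 13636, 13158 and 11314 in the selinexor libraries, against 17358, 18563 and 17799 in the DMSO libraries (log2 fold change -0.50, SE 0.0923, limma adjusted p = 0.00253), and 20754, 18686 and 19344 in the XPO1 siRNA libraries, against 28269, 28624 and 28511 in the control siRNA libraries (log2 fold change -0.54, SE 0.0383, limma adjusted p = 6.99e-08). ALDOC, the brain form (hg19 chromosome 17, 26900133 to 26904283, minus strand), had 383, 451 and 385 in the selinexor libraries, against 396, 391 and 437 in the DMSO libraries, groups that overlapped (log2 fold change -0.01, limma adjusted p = 0.955). With XPO1 siRNA it had 928, 759 and 891, against 1965, 2815 and 2318 in the control siRNA libraries, a 2.73-fold decrease (log2 fold change -1.45, SE 0.104, limma adjusted p = 7.77e-08). The 2 responses of ALDOC differed (difference of the log2 changes 1.44, SE 0.173, limma adjusted p = 4.86e-05). A second annotated gene, RP11-192H23.4, overlaps it on the same strand, at 29.5% of its level in the selinexor table and 6.94% in the knockdown table. Control siRNA replicate 2 was the highest of its group, and without it the knockdown change was -1.32. Per kilobase of exon, ALDOC stood at 421 in XPO1 siRNA cells, against 1161 in control siRNA cells, and ALDOA at 8141 in XPO1 siRNA cells, against 11827 in control siRNA cells.

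In the lower part of the chain, from triose phosphate to pyruvate, 5 of 7 genes fell in each comparison, and ENO2 alone rose, with selinexor. Of all genes tested, 26.3% fell with selinexor and 28.6% with XPO1 siRNA. PGAM1, phosphoglycerate mutase (hg19 chromosome 10, 99185917 to 99193199, plus strand), had 5165, 6595 and 6084 in the selinexor libraries, against 11324, 12314 and 11484 in the DMSO libraries, a 1.98-fold decrease (log2 fold change -0.98, SE 0.103, limma adjusted p = 0.00013). With XPO1 siRNA it had 11978, 11030.1 and 11565, against 17345, 19053 and 17927 in the control siRNA libraries, a 1.57-fold decrease (log2 fold change -0.65, SE 0.0411, limma adjusted p = 2.32e-08). TPI1, which interconverts the triose phosphates, had 10254, 12077 and 10168 in the selinexor libraries, against 20610.5, 21948 and 21049 in the DMSO libraries (log2 fold change -0.97, SE 0.0913, limma adjusted p = 7.24e-05). In the knockdown table TPI1 had 21286, 19121 and 19554 in the XPO1 siRNA libraries, against 28215, 30749 and 29879 in the control siRNA libraries (log2 fold change -0.57, SE 0.044, limma adjusted p = 1.67e-07). No treated library reached a control library for either gene. ENO1, the common enolase, fell by 0.80 with selinexor and by 0.57 with XPO1 siRNA on the log2 scale (limma adjusted p = 0.000108 and 1.04e-07), PGK1, which makes the first ATP of the pathway, by 0.51 with selinexor and 0.60 with XPO1 siRNA (0.00118 and 5.32e-06), and PKM, pyruvate kinase, by 0.49 with selinexor and 0.40 with XPO1 siRNA (0.00757 and 1.64e-06).

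GAPDH and ENO2 were the exceptions. GAPDH, often used as a loading control, had 80294, 92076 and 80374 in the selinexor libraries, against 94941, 99586 and 96691 in the DMSO libraries (log2 fold change -0.21, SE 0.0919, limma adjusted p = 0.0925), and 128451, 118154 and 119300.0 in the XPO1 siRNA libraries, against 126210.0, 127715 and 131592 in the control siRNA libraries (log2 fold change -0.08, adjusted p = 0.137). All selinexor libraries were below all DMSO libraries, while the knockdown groups overlapped. GAPDH passed the threshold when selinexor replicate 2 was left out (-0.27, adjusted p = 0.0225) and when XPO1 siRNA replicate 1 was left out (-0.11, adjusted p = 0.0167). ENO2, the neuronal enolase, had 1824, 1586 and 1548 in the selinexor libraries, against 1075, 1082 and 1080.5 in the DMSO libraries, a 1.53-fold increase (log2 fold change 0.61, SE 0.0901, limma adjusted p = 0.000801). In the knockdown table it had 3109, 2965 and 2941 in the XPO1 siRNA libraries, against 2877, 3029.5 and 3034 in the control siRNA libraries, groups that overlapped (log2 fold change 0.01, limma adjusted p = 0.822). The 2 responses of ENO2 differed (difference of the log2 changes 0.60, SE 0.0934, limma adjusted p = 0.000385). For TPI1 and PGAM1 the fall was larger with selinexor (difference of the log2 changes -0.41, SE 0.104, limma adjusted p = 0.00998, and difference of the log2 changes -0.33, SE 0.115, limma adjusted p = 0.0419). The PGAM1 difference lost its call when any 1 of 8 libraries was left out and without an intensity trend, with values from -0.41 to -0.23.

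Several of these genes have processed pseudogenes, near copies that can take or give reads. GENCODE 29 names 62 for GAPDH, 39 for BNIP3, 13 for PGAM1 and 6 for LDHA. Those with a row in the knockdown table summed to 2.26% of the level of GAPDH, 28.7% of BNIP3, 17.2% of TPI1, 4.49% of LDHA and 0.0621% of PGAM1. TPI1P1 had 2712, 1981 and 1875 with selinexor, against 3461, 3669 and 3553 with DMSO, so that the copy was lower along with TPI1. BNIP3P1 had 424, 307 and 371 with XPO1 siRNA, against 594, 891 and 683 with control siRNA. How the authors treated reads that fit several places is not given in the sources used here, so values of these genes are uncertain to that extent.

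The largest fall with selinexor among the members was that of LDHA (hg19 chromosome 11, 18415935 to 18429973, plus strand), whose subunit favours lactate formation. LDHA had 12102, 14367 and 13449 in the selinexor libraries, against 33359, 35106 and 35013 in the DMSO libraries, a 2.6-fold decrease (log2 fold change -1.38, SE 0.0882, limma adjusted p = 9.16e-06). With XPO1 siRNA it had 29366, 27063 and 27616, against 50586, 58431 and 52958 in the control siRNA libraries, a 1.92-fold decrease (log2 fold change -0.94, SE 0.0492, limma adjusted p = 3.68e-09). All 6 treated libraries were below all controls of their table, and the fall was larger with selinexor (difference of the log2 changes -0.43, SE 0.105, limma adjusted p = 0.00723). LDHB, whose subunit favours the return of lactate to pyruvate, fell as well. It had 24460.2, 28782 and 25988 in the selinexor libraries, against 37258, 38149 and 37966 in the DMSO libraries (log2 fold change -0.52, SE 0.0868, limma adjusted p = 0.0015), and 40579, 37906 and 38054 in the XPO1 siRNA libraries, against 47516, 48497 and 49681 in the control siRNA libraries (log2 fold change -0.32, SE 0.0365, limma adjusted p = 5.84e-06). Within single libraries the ratio of LDHA to LDHB was 0.495, 0.499 and 0.517 with selinexor, against 0.895, 0.920 and 0.922 with DMSO. It was 0.724, 0.714 and 0.726 with XPO1 siRNA, against 1.06, 1.20 and 1.07 with control siRNA. The ratios of treated and control libraries did not overlap. Per kilobase of exon, LDHA stood at 4482 normalized counts with selinexor and 11618 with DMSO, and LDHB at 16652 with selinexor and 23828 with DMSO. LDHA and LDHB both fell in both comparisons, and the part of the printed motifs in these changes was not tested.

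Pyruvate dehydrogenase kinases hold pyruvate out of mitochondria, and PDK1 is the form best known as a HIF target. PDK1 had 447, 494 and 526 in the selinexor libraries, against 679, 651 and 725 in the DMSO libraries (log2 fold change -0.49, SE 0.0994, limma adjusted p = 0.00412). With XPO1 siRNA it had 898, 818 and 869, against 1378, 1999.8 and 1532 in the control siRNA libraries, a 1.88-fold decrease (log2 fold change -0.91, SE 0.1, limma adjusted p = 4.67e-06). The difference of the changes missed the threshold (difference of the log2 changes 0.42, SE 0.163, limma adjusted p = 0.065), and reached it without selinexor replicate 1 (0.48, adjusted p = 0.0101) and without control siRNA replicate 1 (0.53, adjusted p = 0.0233). PDK3, a related kinase, had 232, 287 and 273 in the selinexor libraries, against 287, 274 and 282 in the DMSO libraries (log2 fold change -0.09, limma adjusted p = 0.52), and a log2 fold change of -0.17 with XPO1 siRNA (adjusted p = 0.0866). PDK3 passed the threshold in the knockdown when XPO1 siRNA replicate 3 was left out (-0.22, adjusted p = 0.0492).

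Lactate leaves or enters cells through monocarboxylate transporters, and the 2 measured moved in opposite directions with selinexor. SLC16A1 (MCT1), which carries lactate in either direction, had 9087, 12265 and 11357 in the selinexor libraries, against 16222, 16881 and 16668 in the DMSO libraries (log2 fold change -0.62, SE 0.114, limma adjusted p = 0.00253). SLC16A3 (MCT4), known for lactate export from strongly glycolytic cells, had 137, 115 and 144 in the selinexor libraries, against 85.0, 62.8 and 81.2 in the DMSO libraries, a 1.73-fold increase (log2 fold change 0.79, SE 0.169, limma adjusted p = 0.00527). Both kept apart from their controls in every library. With XPO1 siRNA neither was called: SLC16A1 had 16707, 16386 and 16583 in the XPO1 siRNA libraries, against 16609.5, 17193 and 17007 in the control siRNA libraries and SLC16A3 108, 109 and 95.3 in the XPO1 siRNA libraries, against 94.8, 112 and 89.2 in the control siRNA libraries (log2 fold changes -0.03 and 0.08, limma adjusted p = 0.394 and 0.64). The responses differed between the comparisons for SLC16A1 (difference of the log2 changes -0.58, SE 0.121, limma adjusted p = 0.0028) and for SLC16A3 (difference of the log2 changes 0.71, SE 0.211, limma adjusted p = 0.0216). For SLC16A3 that difference was lost without DMSO replicate 2 (0.57, adjusted p = 0.0553), without control siRNA replicate 2 (0.61, 0.0576) and without XPO1 siRNA replicate 3 (0.64, 0.0552). SLC16A3 rests on about 71.2 to 150.2 estimated reads per library, and its row overlaps CSNK1D on the other strand, whose level was 3220% of its own in the selinexor table. On the same strand it overlaps AC132872.1, at 41.9% of its level in the selinexor table and 42.0% in the knockdown table. AC132872.2, also on that strand, stood at 32.0% in the selinexor table and 11.7% in the knockdown table. The kit was strand-specific, but whether strand was used in counting is not given in the sources used here. Strand would not separate overlaps on the same strand, so the SLC16A3 value is uncertain.

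The PFKFB enzymes set the level of fructose 2,6-bisphosphate, the main activator of phosphofructokinase. All 3 fell with XPO1 siRNA, where 28.6% of all genes fell. With selinexor only PFKFB3 was called, lower, where 26.3% of all genes fell. PFKFB4, a hypoxia-inducible form (hg19 chromosome 3, 48555117 to 48599449, minus strand), had 479, 398 and 386 in the XPO1 siRNA libraries, against 691, 1040.3 and 808 in the control siRNA libraries, a 1.99-fold decrease (log2 fold change -0.99, SE 0.122, limma adjusted p = 1.24e-05). With selinexor it had 241, 272 and 242, against 204, 224 and 236 in the DMSO libraries, all above the DMSO libraries but with no call (log2 fold change 0.19, adjusted p = 0.202), and the responses differed (difference of the log2 changes 1.18, SE 0.191, limma adjusted p = 0.000509). Without control siRNA replicate 2, the knockdown change of PFKFB4 was -0.83. PFKFB3 fell by 0.31 with XPO1 siRNA and by 0.34 with selinexor on the log2 scale (limma adjusted p = 0.00022 and 0.0338), and the selinexor call was lost when any 1 library other than selinexor replicate 1 was left out (values from -0.45 to -0.26). PFKFB2 had 346, 559 and 550.0 in the selinexor libraries, against 646, 653 and 673 in the DMSO libraries (log2 fold change -0.47, adjusted p = 0.055). Selinexor replicate 1 was the lowest: without it the change was -0.24 and passed the threshold (adjusted p = 0.00627), as it did without selinexor replicate 2 (-0.59, adjusted p = 0.0325). With XPO1 siRNA PFKFB2 fell by 0.47 (adjusted p = 9.17e-05), and YOD1 overlaps it on the other strand.

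**Figure D3:**
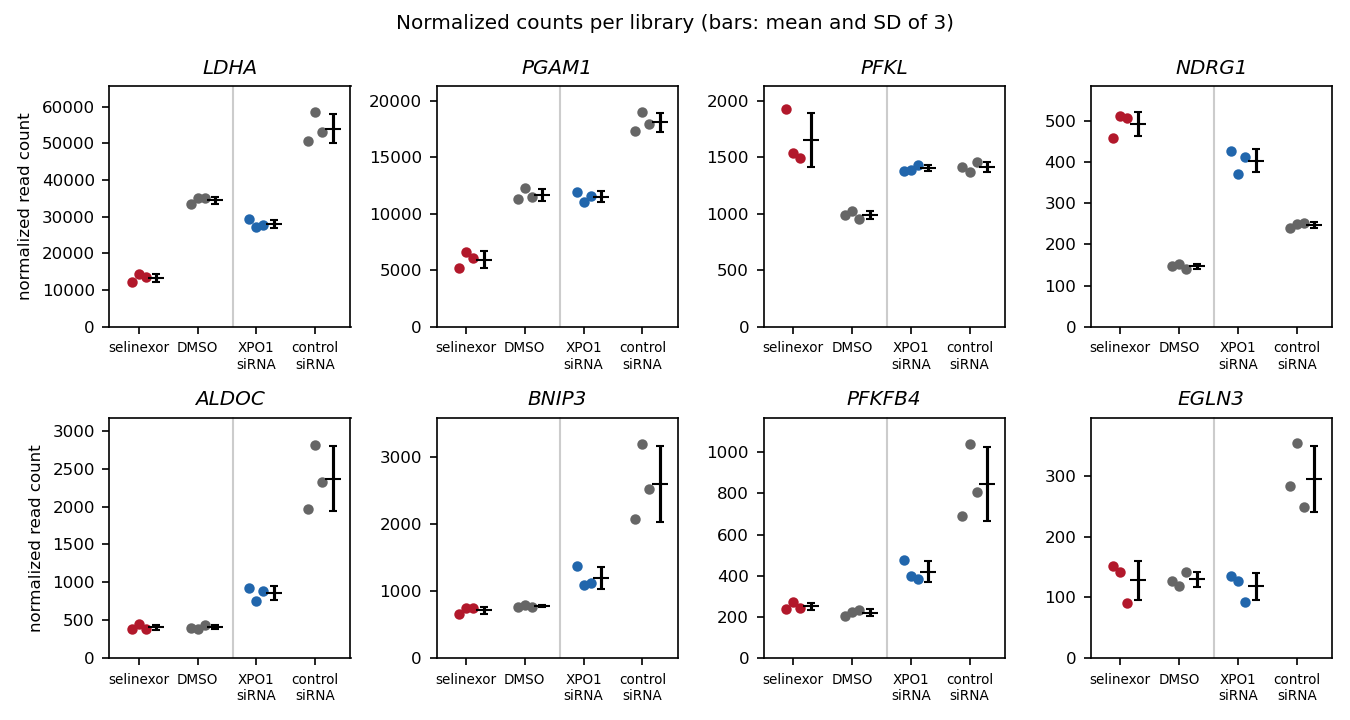
Normalized read count of 8 genes in each library, with points for libraries and bars for the mean and SD of 3; the 2 groups left of the grey line and the 2 right of it were scaled separately. LDHA and PGAM1 are lower in both treated groups, PFKL is higher with selinexor and overlaps between groups in the knockdown, NDRG1 is higher in both, and ALDOC, BNIP3, PFKFB4 and EGLN3 are lower with XPO1 siRNA and spread widely among control siRNA libraries.

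The members known chiefly as hypoxia targets, rather than as enzymes of the chain, were mostly lower with XPO1 siRNA. With XPO1 siRNA 7 of 9 tested fell and 2 rose, where 28.6% of all genes tested fell and 25.9% rose. With selinexor 2 of 8 fell and 2 rose, shares close to the 26.3% lower and 22.9% higher of all genes, so these selinexor counts are no result about the group. BNIP3, a mitochondrial protein that triggers mitophagy (hg19 chromosome 10, 133781578 to 133795436, minus strand), had 1379.6, 1089 and 1122 in the XPO1 siRNA libraries, against 2083, 3201 and 2528 in the control siRNA libraries, a 2.15-fold decrease (log2 fold change -1.11, SE 0.121, limma adjusted p = 4.35e-06). With selinexor it had 658, 745 and 749, against 768, 791 and 764 in the DMSO libraries, a log2 fold change of -0.11 that missed the threshold (adjusted p = 0.33), and the responses differed (difference of the log2 changes 0.99, SE 0.186, limma adjusted p = 0.0014). EGLN3, an oxygen-sensing prolyl hydroxylase, had 135, 127 and 92.9 in the XPO1 siRNA libraries, against 283, 353 and 248 in the control siRNA libraries, a 2.49-fold decrease (log2 fold change -1.31, SE 0.152, limma adjusted p = 7.25e-06). With selinexor EGLN3 had 151, 143 and 91.7, against 127, 119 and 143 in the DMSO libraries, groups that overlapped (log2 fold change -0.04, SE 0.2, adjusted p = 0.873), and here too the responses differed (difference of the log2 changes 1.27, SE 0.281, limma adjusted p = 0.00419). The deposited row of EGLN3 spans chromosome 14, 34393437 to 34931981, and holds SPTSSA and SNORA79 on the same strand, so its reads are uncertain.

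EGLN1, the main oxygen sensor among the prolyl hydroxylases, fell in both: it had 1094, 1261 and 1274 in the selinexor libraries, against 1497, 1669 and 1516 in the DMSO libraries (log2 fold change -0.37, SE 0.0951, limma adjusted p = 0.0123), and 1656, 1567 and 1568 in the XPO1 siRNA libraries, against 2308, 2578 and 2153 in the control siRNA libraries (log2 fold change -0.55, SE 0.0577, limma adjusted p = 2.89e-06). VEGFA, the growth factor of blood vessels, had 458, 365 and 354 in the selinexor libraries, against 534, 545 and 548 in the DMSO libraries (log2 fold change -0.48, SE 0.118, limma adjusted p = 0.0103), and 573, 523 and 506 in the XPO1 siRNA libraries, against 776, 933 and 838 in the control siRNA libraries (log2 fold change -0.67, SE 0.0731, limma adjusted p = 4.47e-06). The selinexor calls of EGLN1 and VEGFA were lost when libraries were scaled to equal totals without RN7SL1 and RN7SL2 (adjusted p = 0.0613 and 0.0642), and that of EGLN1 without DMSO replicate 2 (-0.32, adjusted p = 0.0693). P4HA1, which hydroxylates collagen, had 1223, 1046 and 1114 in the XPO1 siRNA libraries, against 1614, 2088 and 1760.1 in the control siRNA libraries (log2 fold change -0.68, SE 0.0808, limma adjusted p = 8.72e-06), and 566, 862 and 707 in the selinexor libraries, against 837, 946 and 951 in the DMSO libraries (log2 fold change -0.37, adjusted p = 0.0675). Without selinexor replicate 2, P4HA1 passed the threshold (-0.52, adjusted p = 0.0127). BNIP3L, a relative of BNIP3, overlaps PNMA2 on the other strand. PNMA2 stood at 117% of the BNIP3L level in the selinexor table and 120% in the knockdown table. BNIP3L fell by 0.28 with XPO1 siRNA (limma adjusted p = 0.000534). With selinexor it had 2594, 3645 and 3596, against 3161, 3107 and 3132 in the DMSO libraries, where replicate 1 lay below the DMSO libraries and the other 2 above them (log2 fold change 0.05, adjusted p = 0.779), and without replicate 1 it was higher by 0.21 (adjusted p = 0.00157).

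NDRG1 and ANKRD37 went the other way. NDRG1, a growth-restraining gene that hypoxia, iron loss and differentiation are known to raise (hg19 chromosome 8, 134249414 to 134314266, minus strand), had 458, 513 and 506 in the selinexor libraries, against 149, 153 and 141 in the DMSO libraries, a 3.32-fold increase (log2 fold change 1.73, SE 0.104, limma adjusted p = 6.54e-06). With XPO1 siRNA it had 427, 371 and 412, against 240.0, 249 and 252 in the control siRNA libraries, a 1.63-fold increase (log2 fold change 0.70, SE 0.0788, limma adjusted p = 5.55e-06). Every treated library was above every control of its table, and the rise was larger with selinexor (difference of the log2 changes 1.03, SE 0.119, limma adjusted p = 3.61e-05). ANKRD37, a small HIF target, had 121, 121 and 109.9 in the selinexor libraries, against 65.6, 65.7 and 102 in the DMSO libraries (log2 fold change 0.62, SE 0.194, limma adjusted p = 0.0289). In the knockdown table its groups overlapped, with 105, 115 and 133 in the XPO1 siRNA libraries, against 49.0, 117 and 74.1 in the control siRNA libraries (log2 fold change 0.63, SE 0.239, limma adjusted p = 0.0388). Its calls were weak: the selinexor call was lost without DMSO replicate 1 (0.51), DMSO replicate 2 (0.51), selinexor replicate 2 (0.59) or selinexor replicate 3 (0.66), and the knockdown call when any 1 of 4 libraries was left out, with 0.33 without control siRNA replicate 1. UFSP2, on the other strand, overlaps it at 580% of its level in the selinexor table.

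ADM, the vasodilator adrenomedullin, and CA9 were near the lowest measurable level. ADM had 9.74, 7.28 and 8.33 in the XPO1 siRNA libraries, against 9.48, 27.6 and 23.4 in the control siRNA libraries (log2 fold change -1.05, SE 0.408, limma adjusted p = 0.0436), with control siRNA replicate 1 within the range of the XPO1 siRNA libraries. Its call was lost when any 1 library other than control siRNA replicate 1 was left out, for example -0.77 with an adjusted p of 0.184 without control siRNA replicate 2. In the selinexor table ADM had 8.40, 11.6 and 14.2 in the selinexor libraries, against 11.2, 5.29 and 5.42 in the DMSO libraries and was not tested. CA9 was listed at 2.66 normalized counts, about 3 reads, in XPO1 siRNA replicate 1 and at 0 or next to it in the other 2 XPO1 siRNA libraries, against 19.5 and 7.99 in control siRNA replicates 2 and 3 and next to 0 in control siRNA replicate 1. A count of 0 allows up to 3 reads, which would be 2.18 to 3.57 normalized counts in these libraries, so no fold is given.

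The control siRNA libraries themselves differed in this set. Replicate 2 was the highest of its group for 24 of the 33 members with a mean of 50 or more, replicate 3 for 9 and replicate 1 for 0. Over all 17616 tested genes the shares were 34.8%, 33.5% and 31.6%, and over the 13840 with such a mean they were 34.2%, 34.7% and 31.1%. For BNIP3 the 3 control siRNA libraries were 2083, 3201 and 2528 normalized counts (SD 563), while the SD among the XPO1 siRNA libraries was 159. Leaving out control siRNA replicate 2, the log2 changes with XPO1 siRNA were -0.95 for BNIP3, -1.18 for EGLN3, -0.58 for P4HA1 and -0.75 for PDK1, each still called. Among the XPO1 siRNA libraries, replicate 1 was the highest for 27 of 33 members, against 47.7% of all genes with a mean of 50 or more.

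Ratios of related genes within a library do not depend on how a library was scaled. The ratio of ENO2 to ENO1 was 0.0886 to 0.107 with selinexor, against 0.0351 to 0.0374 with DMSO, and 0.0959 to 0.101 with XPO1 siRNA, against 0.0632 to 0.0670 with control siRNA. The neuronal enolase thus gained on the common form in both treated groups, by 2.67-fold with selinexor and 1.5-fold with XPO1 siRNA. PFKL to PFKP was 0.669 to 0.717 with selinexor, against 0.278 to 0.302 with DMSO, and 0.369 to 0.401 with XPO1 siRNA, against 0.271 to 0.294 with control siRNA. PFKM to PFKP was 1.84 to 2.55 with selinexor, against 1.20 to 1.22 with DMSO, and 1.57 to 1.60 with XPO1 siRNA, against 0.911 to 0.974 with control siRNA, so both other subunits gained on PFKP. HK2 to HK1 was 1.22 to 1.35 with selinexor, against 1.64 to 1.74 with DMSO, and 1.42 to 1.57 with XPO1 siRNA, against 1.61 to 1.71 with control siRNA, lower in the treated libraries of both tables. These 4 ratios did not overlap between treated and control libraries in either table.

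Among 5 further pairs with a hypoxia-linked gene, all but PDK1 to PDK3 differed between the 2 tables in how treated libraries stood to controls. ALDOC to ALDOA was 0.0281 to 0.0343 with selinexor, against 0.0211 to 0.0245 with DMSO, and 0.0406 to 0.0460 with XPO1 siRNA, against 0.0695 to 0.0983 with control siRNA: higher than its control with selinexor and lower than its control with XPO1 siRNA. PFKFB4 to PFKFB3 was 0.126 to 0.176 with selinexor, against 0.0957 to 0.121 with DMSO, and 0.212 to 0.239 with XPO1 siRNA, against 0.316 to 0.422 with control siRNA, the same pattern. BNIP3 to BNIP3L was 0.204 to 0.254 with selinexor, against 0.243 to 0.255 with DMSO, and 0.229 to 0.272 with XPO1 siRNA, against 0.371 to 0.488 with control siRNA, overlapping with selinexor and lower with XPO1 siRNA. EGLN3 to EGLN1 was 0.0719 to 0.138 with selinexor, against 0.0714 to 0.0941 with DMSO, and 0.0592 to 0.0818 with XPO1 siRNA, against 0.115 to 0.137 with control siRNA. PDK1 to PDK3 was 1.72 to 1.93 with selinexor, against 2.37 to 2.57 with DMSO, and 2.72 to 3.05 with XPO1 siRNA, against 4.21 to 6.08 with control siRNA, lower in both. In all 5 ratios the control siRNA libraries lay above the DMSO libraries. These 2 control groups differ in nucleofection, siRNA and table, and the time in DMSO is not stated, so the sources of that gap cannot be told apart. The XPO1 siRNA libraries overlapped the DMSO libraries in the ratios of BNIP3 to BNIP3L and of EGLN3 to EGLN1 and lay above them in the other 3.

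**Figure D4:**
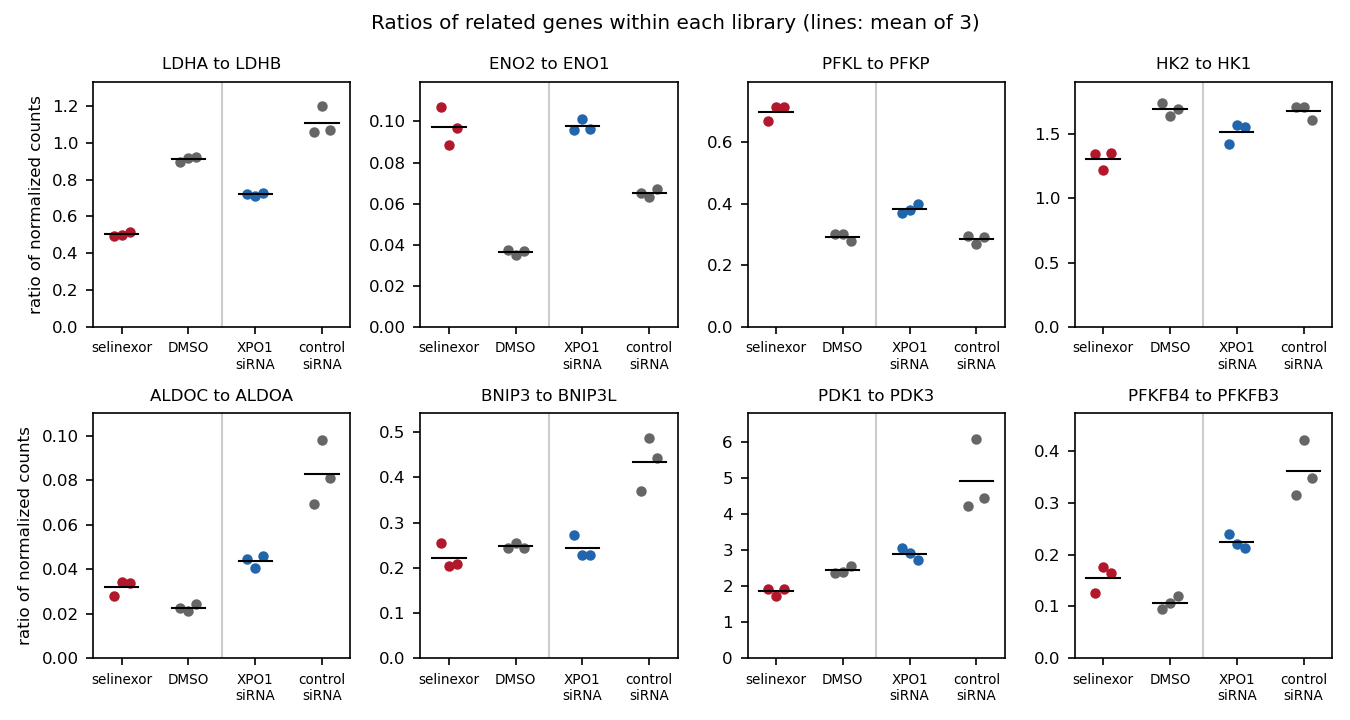
Ratio of the normalized counts of 8 pairs of related genes in each library, with lines at the mean of 3. LDHA to LDHB is lower and ENO2 to ENO1 and PFKL to PFKP are higher than control in both treated groups; ALDOC to ALDOA and PFKFB4 to PFKFB3 are higher than control with selinexor and lower than control with XPO1 siRNA, and the control siRNA libraries are the highest of the 12 for ALDOC, BNIP3, PDK1 and PFKFB4.

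Summed over the 17 genes of the chain from hexokinase to lactate dehydrogenase, glycolytic transcripts made up 0.745% to 0.829% of all normalized counts with selinexor, against 1.03% to 1.05% with DMSO. With XPO1 siRNA they made up 0.932% to 0.993%, against 1.15% to 1.22% with control siRNA. GAPDH supplied 30.1% to 33.1% of that sum with selinexor, against 26.0% to 26.3% with DMSO, and 31.0% to 31.4% with XPO1 siRNA, against 24.4% to 25.7% with control siRNA. The abundant signal recognition particle RNAs, RN7SL1 plus RN7SL2, made up 12.6% to 16.0% of each selinexor library, against 9.40% to 9.72% with DMSO. In XPO1 siRNA libraries they made up 10.8% to 12.4%, against 12.6% to 13.1% with control siRNA. Without these RNAs the glycolytic share was 0.867% to 0.949% with selinexor, against 1.14% to 1.16% with DMSO. It was 1.06% to 1.13% with XPO1 siRNA, against 1.31% to 1.39% with control siRNA.

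Scaling to equal totals without the RN7SL RNAs raised the median log2 fold change of all genes with selinexor to 0.145, and the member median became -0.19. Under it 12 members fell and 7 rose with selinexor, and 3534 genes of all fell and 5489 rose, instead of 4774 and 4146. With equal totals the knockdown table had 24 members lower and 4 higher, and 3647 genes lower and 6049 higher, instead of 5042 and 4561. LDHA, PGAM1, TPI1, ENO1 and SLC2A1 remained lower and NDRG1 higher in both comparisons under every scaling tried.

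The selinexor and knockdown responses of 13 of the 33 members differed, where 31.8% of all 17332 genes tested in both tables differed. The selinexor effect was the higher one for 9 members (HK1, PFKL, ALDOC, ENO2, SLC16A3, PFKFB4, BNIP3, NDRG1 and EGLN3) and the lower one for 4 (TPI1, PGAM1, LDHA and SLC16A1), against 11.6% and 20.2% of all genes. HK1 passed narrowly (difference of the log2 changes 0.29, SE 0.102, limma adjusted p = 0.0472) and lost the call without any 1 of 10 of the 12 libraries, with values from 0.21 to 0.36. With equal totals 8 members had the higher selinexor effect and 6 the lower. Without selinexor replicate 1, the difference was also called for PFKP (-0.23), ENO1 (-0.23), BNIP3L (0.49), EGLN1 (0.25) and P4HA1 (0.46). Dose, duration and mode of delivery differ between the experiments along with the way XPO1 was targeted, and these cannot be told apart.

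Genes around the pathway were read from the same fits (means ± SD, n = 3 each). Among 35 further hypoxia targets, 18 of 30 tested fell and 4 rose with XPO1 siRNA, where 28.6% of all genes tested fell and 25.9% rose. With selinexor 9 of 30 fell and 8 rose, close to the 26.3% lower and 22.9% higher of all genes, and nothing is read from those counts. BHLHE40, a clock-linked repressor, averaged 154 ± 20.6 with XPO1 siRNA and 478 ± 111 with control siRNA, lower in the knockdown (log2 fold change -1.61, SE 0.141, limma adjusted p = 5.14e-07), and with selinexor its log2 fold change was -0.06, not called. The transferrin receptor TFRC averaged 7505 ± 1465 with selinexor and 20240.5 ± 154 with DMSO (log2 fold change -1.45, SE 0.138, limma adjusted p = 7.87e-05), and fell with XPO1 siRNA too (-0.77). ZNF395 (-0.81 with selinexor and -0.69 with XPO1 siRNA) and the fucosyltransferase FUT11 (-0.84 with selinexor and -0.27 with XPO1 siRNA) fell in both. WSB1, a ubiquitin ligase part, rose with XPO1 siRNA (0.72), and its selinexor value of 0.37 missed the threshold, which it passed without selinexor replicate 1 (0.54, limma adjusted p = 4.5e-06) and under each of the other scalings. PPFIA4, a synapse scaffold, rose to 793 ± 75.5 with selinexor, against 319 ± 11.7 with DMSO (log2 fold change 1.30, SE 0.103, limma adjusted p = 2.82e-05), and its value with XPO1 siRNA was 0.14, not called, but called higher without control siRNA replicate 2 (0.20, limma adjusted p = 0.0352) and with equal totals (limma adjusted p = 0.0124). The responses differed in this list for 11 of 29 genes with the higher selinexor effect and for 4 with the lower. Of all genes tested in both, 11.6% had the higher selinexor effect and 20.2% the lower.

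The factors and regulators of the HIF system moved in both directions: with selinexor 5 of 14 rose and 5 fell, and with XPO1 siRNA 6 of 15 rose and 4 fell. The shares of all genes tested were 22.9% higher and 26.3% lower with selinexor and 25.9% higher and 28.6% lower with XPO1 siRNA, and nothing is read from the counts of so short a list. RBX1, a subunit of the ubiquitin ligase that destroys HIF, fell with selinexor (-0.85, limma adjusted p = 0.012) and with XPO1 siRNA (-0.30, limma adjusted p = 0.000286). CUL2, the scaffold of that ligase, fell in both (-0.35 with selinexor and -0.14 with XPO1 siRNA), though its knockdown call was lost with equal totals (limma adjusted p = 0.426) and without XPO1 siRNA replicate 1, XPO1 siRNA replicate 2 or control siRNA replicate 2 (limma adjusted p = 0.0676 to 0.0957). TCEB2, its elongin B, fell with XPO1 siRNA (-0.32) and was not called with selinexor (-0.01). CITED2, which competes with HIF for its coactivators, averaged 607 ± 56.5 with selinexor and 404 ± 22.0 with DMSO, a rise (log2 fold change 0.58, SE 0.105, limma adjusted p = 0.00219). With XPO1 siRNA the CITED2 value of -0.14 was not called, and it was called lower without XPO1 siRNA replicate 1 (-0.20, limma adjusted p = 0.0254). HIF3A rose at a low level with selinexor, with 23.7 ± 1.22 with selinexor and 6.33 ± 1.01 with DMSO (1.76), and was not called with XPO1 siRNA (0.13). CREBBP, one of those coactivators, and HIF1AN, which hydroxylates HIF, rose in both: CREBBP by 0.53 with selinexor and 0.44 with XPO1 siRNA, HIF1AN by 0.23 with selinexor and 0.31 with XPO1 siRNA. Both selinexor calls were lost without selinexor replicate 3 and without any 1 of the DMSO libraries (limma adjusted p = 0.0915 to 0.142 for CREBBP and 0.07 to 0.14 for HIF1AN).

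Most tested genes of the branches that draw on glycolytic intermediates were called lower as well. Of all genes tested, 26.3% were lower with selinexor and 28.6% with XPO1 siRNA. These lists are short. In the serine and glycerol branches, 4 of 5 tested genes fell with selinexor and all 5 with XPO1 siRNA. PHGDH, the first enzyme of serine synthesis, had 1755 ± 254 with selinexor and 7241 ± 311 with DMSO, a 4.15-fold decrease (log2 fold change -2.05, SE 0.111, limma adjusted p = 4.14e-06), and 4493 ± 112 with XPO1 siRNA and 8627 ± 205 with control siRNA, a 1.92-fold decrease (log2 fold change -0.94, SE 0.0344, limma adjusted p = 1.08e-10). PSAT1 and PSPH, the next steps, fell by 1.60 and 0.83 with selinexor and by 0.86 and 0.73 with XPO1 siRNA. GPD2, the mitochondrial glycerol 3-phosphate dehydrogenase, fell by 0.96 with selinexor and 0.51 with XPO1 siRNA. In the pentose phosphate branch 6 of 7 fell in each comparison and the remaining gene was not called. PGD, which makes NADPH, fell by 0.67 with selinexor and 0.35 with XPO1 siRNA, RPE by 0.81 with selinexor and 0.38 with XPO1 siRNA, and TALDO1 by 0.57 with selinexor and 0.49 with XPO1 siRNA. TKT, transketolase, fell by 0.40 with selinexor and 0.41 with XPO1 siRNA.

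For the entry of pyruvate into mitochondria, 3 of 12 genes rose and 3 fell with selinexor, and 3 rose and 4 fell with XPO1 siRNA. All genes tested gave 22.9% higher and 26.3% lower with selinexor, and 25.9% higher and 28.6% lower with XPO1 siRNA, so these counts are close to the background and are no result about the list. MPC1, a subunit of the mitochondrial pyruvate carrier, fell in both, with 616 ± 172 with selinexor and 1142 ± 59.9 with DMSO (-0.93), and 1007 ± 23.3 with XPO1 siRNA and 1436 ± 106 with control siRNA (-0.51). PDK2, a further dehydrogenase kinase, rose in both (0.63 with selinexor and 0.25 with XPO1 siRNA), as did PDPR, a regulatory subunit of the pyruvate dehydrogenase phosphatase (0.24 with selinexor and 0.45 with XPO1 siRNA). The selinexor call of PDPR was lost without selinexor replicate 3 and without any 1 of the DMSO libraries (limma adjusted p = 0.0862 to 0.179). DLAT, a core subunit of pyruvate dehydrogenase, fell in both (-0.43 with selinexor and -0.11 with XPO1 siRNA), but it lost the selinexor call without any 1 of the DMSO libraries (limma adjusted p = 0.0526 to 0.0694) and the knockdown call without either XPO1 siRNA replicate 2 or 3 or control siRNA replicate 1 or 2 (limma adjusted p = 0.0554 to 0.0994) and with equal totals (-0.02, limma adjusted p = 0.742). PC, pyruvate carboxylase, fell with selinexor (-0.47) and was not called with XPO1 siRNA (-0.06), though called lower there without control siRNA replicate 2 (-0.13, limma adjusted p = 0.0445). With XPO1 siRNA MPC2 fell (-0.36) and PDHX rose (0.20), and neither was called with selinexor (-0.11 for MPC2 and -0.07 for PDHX). In the TCA cycle 6 of 16 genes fell with selinexor, where 26.3% of all genes fell, and this count is not read as a result. With XPO1 siRNA 13 of 16 fell, where 28.6% of all genes fell. In each comparison the others were not called. FH, fumarase, fell by 0.80 with selinexor and 0.54 with XPO1 siRNA, SUCLG2 by 0.90 with selinexor and 0.68 with XPO1 siRNA, and SDHB by 0.43 with selinexor and 0.46 with XPO1 siRNA. The selinexor call of SDHB was lost without DMSO replicate 2 (limma adjusted p = 0.0552). DLST fell in both (-0.29 with selinexor and -0.16 with XPO1 siRNA), and lost the selinexor call without DMSO replicate 2 or 3 (limma adjusted p = 0.0744 to 0.0792) and the knockdown call with equal totals (limma adjusted p = 0.149). MDH2 fell with XPO1 siRNA (-0.33), and with selinexor its value of -0.15 was called only without selinexor replicate 1 (-0.20, limma adjusted p = 0.0061). Where 26.3% of all genes fell and 22.9% rose with selinexor, 8 of 14 other isoforms of the glycolytic steps fell and 3 rose. Where 28.6% of all genes fell and 25.9% rose with XPO1 siRNA, 7 of 14 of these isoforms fell and 1 rose. Their leading genes were PGAM5, a mitochondrial phosphatase in spite of its name (-1.0 with selinexor and -0.66 with XPO1 siRNA), PGM2 (-0.62 with selinexor and -0.27 with XPO1 siRNA), PGM1 (-0.35 with selinexor and -0.70 with XPO1 siRNA), PGAM4 (-0.94 with selinexor and -0.50 with XPO1 siRNA) and SLC2A8 (-0.72 with selinexor and -0.34 with XPO1 siRNA), all called lower in both comparisons. The selinexor call of PGM1 was lost without DMSO replicate 2 (limma adjusted p = 0.0509). ADPGK was lower with selinexor (-0.53) and not called with XPO1 siRNA (0.06), where equal totals called it higher (0.15, limma adjusted p = 0.0108).

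Markers of cell identity moved with both treatments. Of the 8 adrenergic markers tested, 6 rose and 2 were not called in each comparison. Over all genes, 22.9% rose with selinexor and 25.9% with XPO1 siRNA. Their summed level was 82690 to 96810 with selinexor, against 68630 to 71160 with DMSO, and 96610 to 102900 with XPO1 siRNA, against 78960 to 81020 with control siRNA. CHGA, a protein of secretory granules, rose by 1.02 with selinexor and 0.92 with XPO1 siRNA on the log2 scale. MYCN was not called with selinexor (log2 fold change 0.09) and was called higher with XPO1 siRNA (0.30). Schwann and glial markers, 4 of 7 with a row, summed to 212.4 to 218.8 with selinexor, against 94.4 to 108.3 with DMSO, and to 165.5 to 179.8 with XPO1 siRNA, against 114.6 to 152.3 with control siRNA; S100B, CDH19 and GFAP had no row. Endothelial markers, 2 of 4 with a row, summed to 66.6 to 91.2 with selinexor, against 41.3 to 44.2 with DMSO. With XPO1 siRNA the sum was 78.6 to 93.8, against 41.4 to 53.2 with control siRNA. Only CDH5 was called, higher in both (1.04 with selinexor and 1.17 with XPO1 siRNA on the log2 scale). KDR was not called (0.52 with selinexor and -0.61 with XPO1 siRNA) and was under 10 in every XPO1 siRNA library. PECAM1 and VWF had no row. The part of these shifts in the changes of the glycolytic genes was not tested.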

How the data were processed

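Strand-specific total RNA libraries of IMR5 cells were sequenced, per the labels' protocols. The authors deposited 2 tables of normalized signal: read counts per gene that DESeq2 scaled by library within each table, per the file headers. STAR 2.7.3a, Partek, DESeq2 and build hg19 are named in the submitters' processing notes. The annotation, the counting options and whether strand was used: not given in the sources used here. Of the columns, 3 matched no sample and were not used, and 25 symbols that a spreadsheet had turned into dates were restored. Low values were whole multiples of 1 read for only 61.8% to 66.7% of values per library (tolerance 0.02, chance 4%), so no count model was used, and depths are estimates.

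Values were tested as log2(value + 1) with limma 3.58.1 (R 4.3.3; lmFit, eBayes with intensity trend, two-sided) over genes with a mean of 10 or more in a table, with Benjamini-Hochberg adjustment over all genes and a threshold of 0.05. This scale understates the change of low genes. The difference of effects used the 12 libraries with 4 group means. Fits were tested on simulated data. The members and lists were chosen with earlier results of these data known. Of each other list, up to 4 called genes with the smallest p per comparison are named. Promoter windows come from the RefSeq table on GRCh38.p14, and exon lengths and pseudogene names from GENCODE 29. Alternatives were other pseudocounts, filters and scalings, no trend, a replicate block, leaving out each library and, chosen after seeing the data, totals without RN7SL1 and RN7SL2.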

Additional observations from a re-analysis of the deposited data

Results flagged for a closer look

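In 3 genes of the lists around the pathway, the selinexor and XPO1 siRNA effects were called in opposite directions and the difference itself passed the test. DDIT4, a stress-induced inhibitor of mTOR signalling and a known hypoxia target, had 1969 ± 128 normalized counts with selinexor and 1251 ± 73.7 with DMSO (SD, n = 3 each; log2 fold change 0.65, limma adjusted p = 0.000547), and 2755 ± 208 with XPO1 siRNA and 6048 ± 1169 with control siRNA (log2 fold change -1.12, limma adjusted p = 5.29e-07). The selinexor effect minus the knockdown effect was 1.77 on the log2 scale (limma adjusted p = 4.04e-06). HIF1A, the oxygen-regulated subunit of HIF-1, had 7659 ± 1439 normalized counts with selinexor and 10045 ± 229 with DMSO (SD, n = 3 each; log2 fold change -0.41, limma adjusted p = 0.034), and 10490.3 ± 284 with XPO1 siRNA and 9602 ± 29.1 with control siRNA (log2 fold change 0.13, limma adjusted p = 0.00414), a difference of -0.54 (limma adjusted p = 0.0141). VHL, which marks that subunit for destruction, had 3382 ± 399 normalized counts with selinexor and 4172 ± 164 with DMSO (SD, n = 3 each; log2 fold change -0.31, limma adjusted p = 0.0327), and 4158 ± 237 with XPO1 siRNA and 3476 ± 160.1 with control siRNA (log2 fold change 0.26, limma adjusted p = 0.000363), a difference of -0.57 (limma adjusted p = 0.00237). The selinexor libraries of HIF1A read 6009.8, 8657 and 8310.0 normalized counts, and without replicate 1, the lowest, its selinexor change was -0.24 (limma adjusted p = 0.000913). The selinexor calls of HIF1A and VHL were lost without any 1 of the DMSO libraries (limma adjusted p = 0.0804 to 0.102 for HIF1A and 0.0686 to 0.119 for VHL), with totals without RN7SL1 and RN7SL2 (limma adjusted p = 0.112 and 0.151) and without the intensity trend (limma adjusted p = 0.0753 and 0.0692), and that of VHL also without selinexor replicate 3 (limma adjusted p = 0.0678). Their knockdown and difference calls, and all 3 calls of DDIT4, held under every alternative run. Leaving out 1 library gave differences of 1.62 to 1.89 for DDIT4, -0.63 to -0.37 for HIF1A and -0.65 to -0.48 for VHL. These alternatives were run for the 3 genes after their values were seen. For each of the 3 genes the knockdown table and the selinexor table have their own control libraries.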

How the results depend on the processing

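The numbers of members called kept within 1.5 times under every alternative run. Leaving out 1 library gave 19 to 25 called members with selinexor (5 to 7 higher, 14 to 18 lower), 26 to 28 with XPO1 siRNA (2 to 3 higher, 24 to 25 lower) and 10 to 19 differences (7 to 13 and 3 to 6). The calls over all genes moved as well. They were 3039 to 5065 higher and 3474 to 6014 lower with selinexor, and 3977 to 4321 higher and 4458 to 4854 lower with XPO1 siRNA. Differences over all genes were 1547 to 2865 and 2766 to 4770. The 19 and the 25 members came with 35.9% and 61.1% of all genes called. The log2 changes that turned sign had missed the threshold in the fits reported above. With equal totals they became 0.0696 for ALDOC with selinexor, 0.0351 for EGLN3 with selinexor, 0.0763 for PFKL with XPO1 siRNA, 0.0143 for GAPDH with XPO1 siRNA, 0.0580 for SLC16A1 with XPO1 siRNA and -0.0105 for PFKFB2 (difference); with a trimmed mean, 0.00650 for ALDOC with selinexor; and with totals without RN7SL1 and RN7SL2, 0.145 for ALDOC with selinexor, 0.0590 for PDK3 with selinexor, 0.0415 for BNIP3 with selinexor, 0.111 for EGLN3 with selinexor, 0.0597 for PFKL with XPO1 siRNA, 0.0413 for SLC16A1 with XPO1 siRNA, 0.0529 for PFKFB3 (difference) and 0.0659 for ANKRD37 (difference). Without single libraries, sign turns gave ranges of -0.0126 to 0.122 for ALDOA (difference), -0.0856 to 0.0419 for ALDOC with selinexor, -0.330 to 0.291 for ANKRD37 (difference), -0.0371 to 0.208 for BNIP3L with selinexor, -0.175 to 0.183 for EGLN3 with selinexor, -0.0133 to 0.0272 for ENO2 with XPO1 siRNA, -0.0393 to 0.109 for HK2 (difference), -0.117 to 0.229 for PFKFB2 (difference), -0.140 to 0.0472 for PFKFB3 (difference), -0.0357 to 0.00739 for PFKL with XPO1 siRNA, -0.234 to 0.000181 for PFKP (difference), -0.00812 to 0.167 for PGK1 (difference) and -0.194 to 0.00868 for PKM (difference). The cause was not tested. Calls that changed are listed with their log2 value and limma adjusted p, apart from those given beside the genes. Equal totals lost PFKFB3 with selinexor (-0.26, 0.125), ADM with XPO1 siRNA (-0.96, 0.062) and the difference of HK1 (0.27, 0.0664), and gained ENO2 (0.10, 0.0271) with XPO1 siRNA and the differences of ENO1 (-0.24, 0.0237) and LDHB (-0.21, 0.0173). The trimmed mean lost HK2 (-0.26, 0.0512) with selinexor. Totals without RN7SL1 and RN7SL2 lost HK2 (-0.12, 0.342), PFKFB3 (-0.18, 0.228) and GPI (-0.19, 0.0504) with selinexor, ADM (-0.98, 0.0587) with XPO1 siRNA and the difference of PGAM1 (-0.25, 0.0627), and gained PFKFB4 (0.34, 0.0257) with selinexor and the differences of PDK1 (0.50, 0.0336) and BNIP3L (0.41, 0.0459). Without the intensity trend, HK2 (-0.28, 0.0823) and PFKFB3 (-0.34, 0.0692) with selinexor, ADM (-1.05, 0.0778) and ANKRD37 (0.63, 0.158) with XPO1 siRNA, and the differences of HK1 (0.29, 0.0783) and PGAM1 (-0.33, 0.0747) were lost. Without a filter the difference of HK1 (0.29, 0.0503) was lost. The replicate block lost HK2 (-0.28, 0.0571) with selinexor, ADM (-1.05, 0.0556) with XPO1 siRNA and the difference of HK1 (0.29, 0.0875). It gained PFKFB2 (-0.47, 0.0358) and P4HA1 (-0.37, 0.0335) with selinexor. Without selinexor replicate 2 the differences of ENO1 (-0.27, 0.0248) and LDHB (-0.26, 0.0162) were gained. Totals without RN7SL1 and RN7SL2 gave 2538 higher and 2832 lower differences among all genes, against 2014 and 3505 with the deposited scaling, and 11 and 3 among members. Equal totals moved no median of all genes by more than 0.1.

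No pairing by replicate number was visible in the values. Deviations of same-numbered libraries correlated at 0.0088, 0.12 and -0.042 in the selinexor table and at -0.031, -0.02 and -0.10 in the knockdown table. Not every library correlated best with its own number. Weak correlations among groups of 3 cannot exclude paired cultures. With the replicate block, 24 members were called with selinexor (6 higher, 18 lower), 27 with XPO1 siRNA (3 and 24) and 12 differences (8 and 4). Of all genes the block called 3991 higher and 4680 lower with selinexor, 4439 and 4882 with XPO1 siRNA, and 1801 and 3272 differences. ADM, CA9 and SLC16A3, at about 150 reads or fewer per library, are limited by depth, and a group of 3 libraries limits every spread.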
